A study of Oryza sativa with 6 samples.

Results

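The YABBY family of rice was followed in panicles that overexpress OsEXPA7, an alpha-expansin, and in wild-type panicles of the cultivar Nipponbare. The members are the 8 loci that carry the names YAB1 to YAB7 and DROOPING LEAF (DL), out of 42189 loci in the expression table, and they are given by family name, proposed with earlier results of these data known. RNA came from panicles under a treatment that the labels call natural, with 3 overexpression libraries (genotype EXPA7_OE) and 3 wild-type libraries, whose genotype field reads EXPA7. The sources used here give neither the promoter of the transgene, the number of lines and the plants behind each library, nor the panicle stage, so p-values measure only the spread between these libraries, which may be technical.

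YABBY proteins are plant transcription factors with a zinc finger and a DNA-binding YABBY domain, made mainly in young lateral organs such as leaf primordia and floral organs. In Arabidopsis many of them mark the lower side of these organs. In rice DL specifies carpels in the flower and forms the midrib of the leaf, and YAB5, also called TONGARI-BOUSHI1 (TOB1), supports spikelet meristems and the organs they form. By general knowledge of their sequences, YAB1, YAB2 and YAB6 belong to the YAB2 clade, YAB3, YAB4 and YAB5 to the FIL clade, YAB7 to the INO clade and DL to the CRC clade. All 8 names were found in the RefSeq gene table (assembly ASM3414082v1), each on the chromosome that its locus identifier names. That table also lists a second numbering in which, for example, the name OsYAB3 stands for YAB5, so the locus identifier is decisive. The chromosomes, read from the identifiers, are 7 for YAB1 (LOC_Os07g06620) and YAB7 (LOC_Os07g38410), and 3 for YAB2 (LOC_Os03g44710) and DL (LOC_Os03g11600). The other members are YAB3 (LOC_Os10g36420) on chromosome 10, YAB4 (LOC_Os02g42950) on 2, YAB5 (LOC_Os04g45330) on 4 and YAB6 (LOC_Os12g42610) on 12.

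Values are TPM, transcript shares of a fixed total per library, which are scaled per transcript length. Because no quantifier or annotation is named, the lengths used are unknown, and levels of different loci are compared only as deposited. The locus taken for OsEXPA7 from general knowledge, LOC_Os03g60720, had 5077, 4323 and 4946 TPM in the overexpression libraries and 964, 959 and 882 TPM in the wild-type libraries, in the direction of the labels. Libraries of one genotype correlated at 0.991 to 0.993 across loci, against 0.948 to 0.953 between genotypes. Read depth is unknown. Genotype was tested for 23395 loci with limma on log2(TPM + 1), and called at a Benjamini-Hochberg adjusted p under 0.05; all log2 changes are overexpression over wild type on that scale. By this rule 42.8% of tested loci were called, 25.3% higher and 17.5% lower with overexpression. Harvest or library batches are not given in the labels and cannot be told apart from the genotype.

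Among the YABBY loci DL, the carpel and midrib gene, was lower with overexpression and YAB4 was higher, at 0.817 and 1.15 times the wild-type mean. The other 6 did not pass the threshold. All 8 were tested, and 2 of the 8 were called, beside 42.8% of all tested loci. The groups did not overlap at the same 2 loci, against 53.7% of tested loci. No member changed at least 2-fold, whereas 4.82% of tested loci were called with a change of that size. Their log2 changes lay between -0.28 and 0.21 with a median of -0.09, beside a median of 0.06 over all tested loci. The median size of the change regardless of sign was 0.19 for the family and 0.23 for all tested loci.

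**Figure D1:**
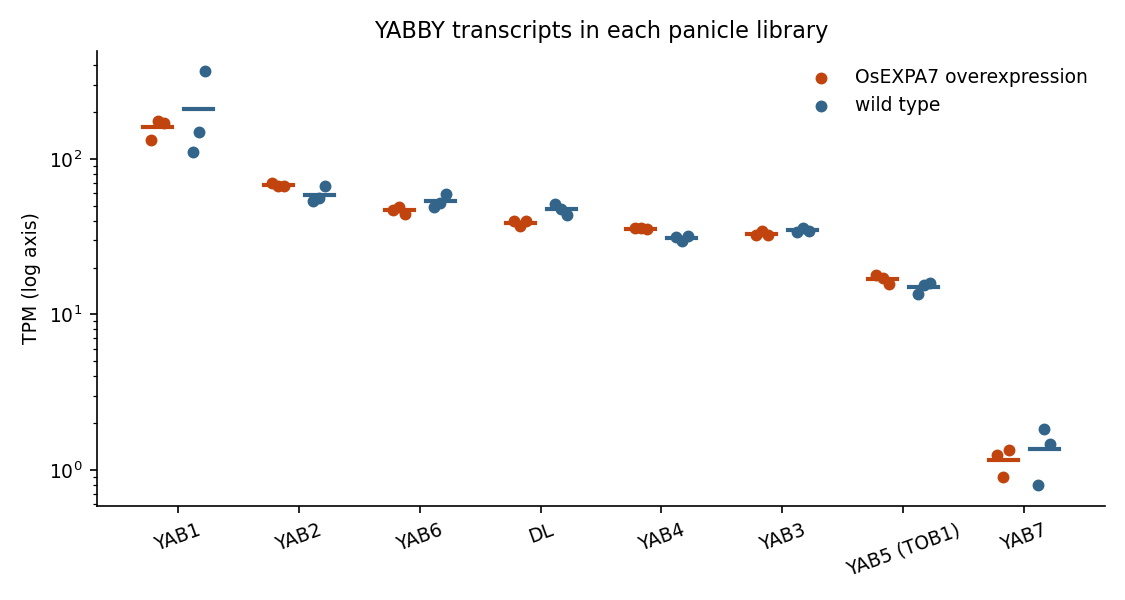
TPM (log axis) of the 8 YABBY loci in each library, with 3 overexpression libraries left of 3 wild-type libraries at each locus and a short line at each group mean. YAB1 is the highest member in every library and YAB7 the lowest, and 1 wild-type library stands above the others at YAB1 with 365 TPM.

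DL had 40.0, 36.8 and 39.9 TPM in the overexpression libraries, against 51.1, 47.9 and 43.8 TPM in the wild-type libraries. Each overexpression library lay below each wild-type library, and the lowest wild-type library was 3.84 TPM above the highest overexpression library. The means were 38.9 ± 1.77 TPM with overexpression and 47.6 ± 3.65 TPM in wild type (SD, n = 3 each). The log2 change was -0.28 ± 0.07 (SE; 95% interval -0.44 to -0.12), with a limma adjusted p of 0.0117. By size of fall 3937 tested loci changed as much or more. The call was lost when all 42189 loci were tested without a filter on low values (limma adjusted p = 0.0558) and held under the other 14 of 15 alternatives, including both other scalings. In a bulk sample a smaller number of DL-expressing cells and less DL transcript per cell cannot be told apart.

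The FIL clade holds the other called member. YAB4, which in rice has been linked to vascular development and gibberellin signalling, had 35.8, 35.7 and 35.3 TPM in the overexpression libraries, against 31.4, 29.4 and 31.8 TPM in the wild-type libraries. The groups did not overlap. Its log2 change was 0.20 ± 0.06 (SE; 95% interval 0.07 to 0.34), with a limma adjusted p of 0.024. This call did not hold when libraries were rescaled: with median-of-ratios scaling the log2 change was 0.15 (limma adjusted p = 0.0667), and quantile normalization gave 0.09 (limma adjusted p = 0.231). It was also lost without wild-type replicate 1 (log2 change 0.21, limma adjusted p = 0.0539) or 2 (0.17, adjusted p = 0.0997) and without overexpression replicate 1 (0.20, adjusted p = 0.0569) or 3 (0.21, adjusted p = 0.0666).

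YAB5 (TOB1), the spikelet meristem gene, had 18.0, 17.2 and 15.7 TPM in the overexpression libraries and 13.4, 15.4 and 15.8 TPM in the wild-type libraries. The groups overlapped by a narrow margin, and the log2 change of 0.18 (95% interval -0.02 to 0.38) did not pass (limma adjusted p = 0.133). YAB3, which acts in rice leaf development, had 32.4, 34.2 and 32.4 TPM with overexpression and 34.0, 36.1 and 34.5 TPM in wild type. Its 95% interval around a log2 change of -0.08 reached from a fall of 0.21 to a rise of 0.06 log2 units, and it did not pass (limma adjusted p = 0.331). After quantile normalization YAB3 passed as lower, with a log2 change of -0.19 (limma adjusted p = 0.0281).

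YAB1, the most abundant member, takes part in a feedback on gibberellin synthesis in rice. It had 133, 175 and 170.5 TPM in the overexpression libraries and 111, 148 and 365 TPM in the wild-type libraries. Wild-type replicate 3 was 2.46 times the next wild-type library, so that the wild-type range enclosed the whole overexpression range. Among 9922 loci averaging 20 TPM or more over all libraries, 45 (0.454%) spread as widely as YAB1 within wild type, where the highest library was 3.29 times the lowest; the median locus spread 1.11-fold. Of the same loci, 13 were at least 2-fold above both other wild-type libraries in replicate 3, against 23 in replicate 1 and 17 in replicate 2. At least 2-fold below both others were 29 in replicate 3, 19 in replicate 1 and 25 in replicate 2. The log2 change of YAB1 was -0.20 (95% interval -1.01 to 0.61), with a limma adjusted p of 0.685. Without wild-type replicate 3 it was 0.30 and did not pass either (limma adjusted p = 0.13).

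The other YAB2-clade members also had their highest wild-type value in replicate 3, as did YAB4 and YAB5 of the FIL clade, so this was not particular to the YAB2 clade. YAB2 had 70.2, 66.6 and 67.3 TPM in the overexpression libraries and 53.9, 55.6 and 66.9 TPM in the wild-type libraries. Wild-type replicate 3 reached the overexpression range, and the other wild-type libraries lay below it. The log2 change of YAB2 was 0.21 (95% interval 0.03 to 0.40), with a limma adjusted p of 0.0632; without wild-type replicate 3 it was 0.31 and passed (limma adjusted p = 0.00354). YAB6 had 46.9, 49.2 and 44.2 TPM with overexpression and 49.0, 52.3 and 59.2 TPM in wild type. The overlap rested on 1 library of each group, and the log2 change of -0.19 (95% interval -0.37 to -0.01) did not pass (limma adjusted p = 0.0845). With median-of-ratios scaling YAB6 passed as lower, at -0.24 (limma adjusted p = 0.0196), and after quantile normalization at -0.28 (limma adjusted p = 0.0107). It also passed as lower without wild-type replicate 1 (limma adjusted p = 0.0479).

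YAB7, whose Arabidopsis relative INO acts in the outer integument of the ovule, was near the filter. It had 1.24, 0.899 and 1.35 TPM in the overexpression libraries and 0.796, 1.84 and 1.47 TPM in the wild-type libraries. It reached 1 TPM in 4 of 6 libraries, the minimum for testing being 3. The log2 change was -0.11 (95% interval -0.53 to 0.30; limma adjusted p = 0.65), and on this scale the change of so low a locus is understated.

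**Figure D2:**
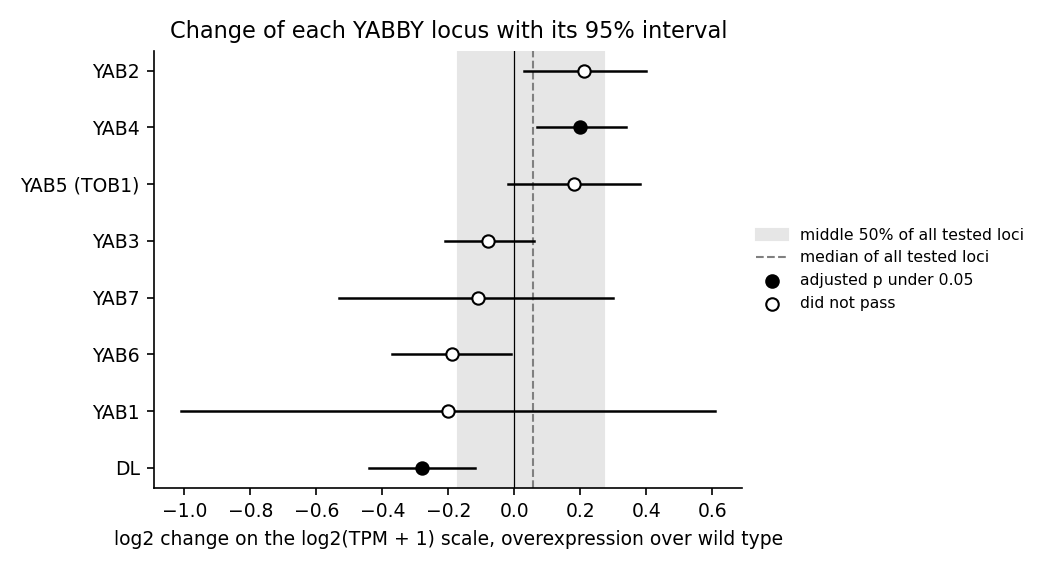
Log2 change of each YABBY locus, overexpression over wild type on the log2(TPM + 1) scale, as points with 95% intervals; filled points passed the adjusted threshold. The grey band spans the middle 50% of all tested loci. DL (-0.28) and YAB4 (0.20) are filled, and YAB1 has the widest interval.

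The order of the levels was nearly the same in both genotypes. YAB1 led, YAB5 and YAB7 came last, and these did not overlap with their neighbours in the order in either genotype. In the overexpression libraries the order was YAB1, YAB2, YAB6, DL, YAB4, YAB3, YAB5 and YAB7, and no neighbours overlapped. In wild type YAB2, YAB6 and DL overlapped one another in turn, at 53.9 to 66.9, 49.0 to 59.2 and 43.8 to 51.1 TPM. YAB3 and YAB4 exchanged places. YAB4 was above YAB3 in all 3 overexpression libraries, with YAB3 over YAB4 at 0.905, 0.958 and 0.918, and below it in all 3 wild-type libraries, with ratios of 1.08, 1.23 and 1.08.

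Such ratios between members within a library do not depend on how the library was scaled by a single factor. Of the 28 pairs of members, 10 (35.7%) had ratios that did not overlap between the genotypes, against 54.8% of all pairs of tested loci with a value above 0 in every library. With 3 libraries a side the exact permutation test, two-sided, cannot go below 0.1, and adjusted over the 28 pairs no p was below 0.28. YAB2 over YAB6, both of the YAB2 clade, was 1.50, 1.35 and 1.52 with overexpression and 1.10, 1.06 and 1.13 in wild type. YAB4 over DL was 0.896, 0.969 and 0.886 with overexpression and 0.614, 0.614 and 0.726 in wild type. All 10 pairs lie among the 6 loci other than YAB1 and YAB7, the members with the widest spread between libraries. That is 10 of 15 pairs (66.7%), but no locus was set apart for its spread in the 54.8%, which is therefore not a like share. In 9 of them YAB2, YAB4 or YAB5 stood higher with overexpression relative to YAB3, YAB6 or DL. Of these 6 loci, the first 3 are those with a positive log2 change and the last 3 those with a negative one. The direction of the 9 pairs therefore follows from that split and is no further result. The remaining pair is YAB3 over DL, also higher with overexpression. Without wild-type replicate 1 there were 17 pairs that did not overlap, or 60.7% against 60.7% of all pairs of loci at that setting. Without wild-type replicate 3 there were 14, and leaving out any of the other libraries gave 10 or 11, against 60.4% to 63.6% of all pairs in these settings.

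**Figure D3:**
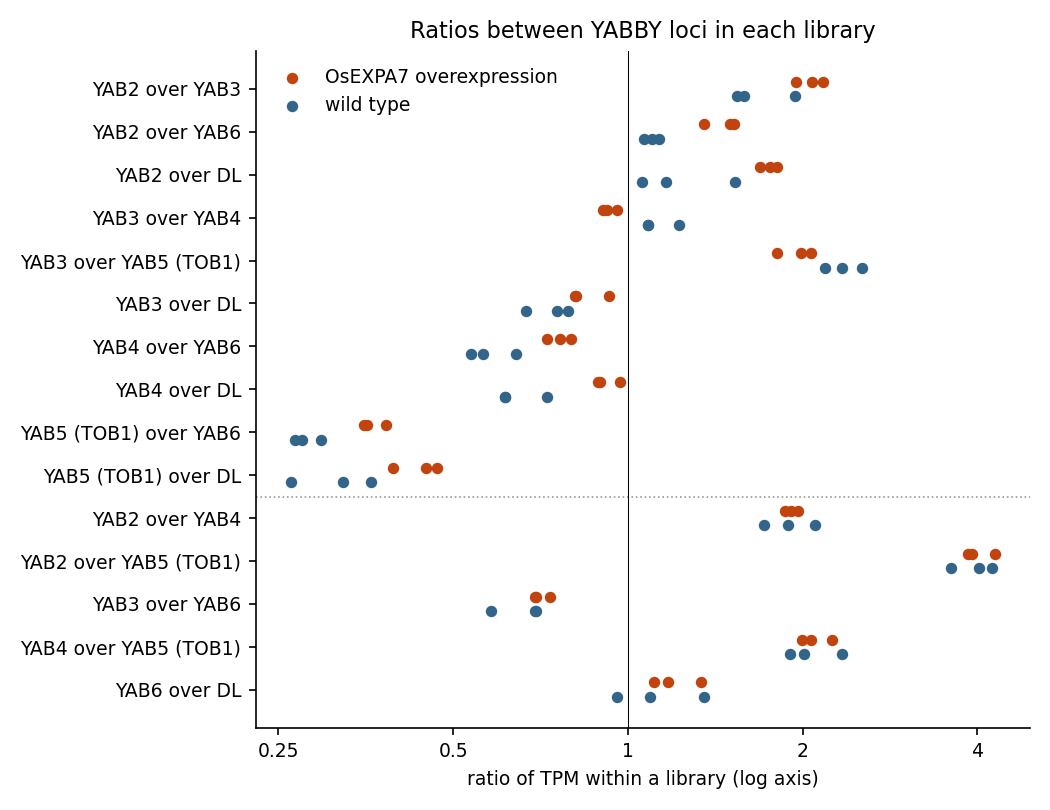
Ratio of TPM within a library (log axis) for the 15 pairs among the 6 loci other than YAB1 and YAB7, with the 3 overexpression libraries drawn above the 3 wild-type libraries of each pair. The 10 pairs above the dotted line do not overlap between the genotypes, and the ratio of YAB3 over YAB4 lies below 1 in every overexpression library and above 1 in every wild-type library.

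The summed level of the family overlapped between the genotypes. The 8 loci summed to 378, 416 and 407 TPM in the overexpression libraries and 344, 387 and 618 TPM in the wild-type libraries (exact permutation test, two-sided, p = 0.9). Without wild-type replicate 3 the difference of the means, overexpression minus wild type, was 34.4 TPM in place of -49.9 TPM. Without YAB1 the other 7 loci summed to 245, 241 and 236 TPM with overexpression and to 234, 239 and 254 TPM in wild type. YAB1 made up 35.3%, 42.1% and 41.9% of the family sum in the overexpression libraries, and 32.2%, 38.3% and 59.0% in the wild-type libraries. DL made up 10.6%, 8.87% and 9.80% of the sum of all 8 with overexpression and 14.8%, 12.4% and 7.08% in wild type, values that overlapped (exact permutation test, two-sided, p = 0.5). The difference of these means, overexpression minus wild type, was -1.68 percentage points. Leaving out 1 library, it ran from -3.86 points without wild-type replicate 3 to 0.018 points without wild-type replicate 1. YAB2 made up 18.6%, 16.0% and 16.5% of that sum with overexpression and 15.7%, 14.4% and 10.8% in wild type. These values did not overlap (exact permutation test, two-sided, p = 0.1), whereas the share of each other member did. The 10.8% is that of wild-type replicate 3, where the family sum was 618 TPM. In TPM, YAB2 was highest among the wild-type libraries there, at 66.9 TPM, and its groups overlapped. Of the sum of the other 7, a denominator added after YAB1 was seen to spread so widely, DL held 16.4%, 15.3% and 16.9% with overexpression, against 21.9%, 20.1% and 17.3% in wild type. YAB2 held 28.7%, 27.7% and 28.5% of it with overexpression, against 23.1%, 23.3% and 26.4% in wild type. Neither of these shares of the 7 overlapped between the genotypes (exact permutation test, two-sided, p = 0.1, the smallest it allows). The same held for the shares of YAB4, YAB5 and YAB6, whereas those of YAB3 and YAB7 overlapped, so DL and YAB2 do not stand apart by this measure. Shares of either sum were not computed for other sets of loci.

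Loci beside the members on the chromosome were read next. Of the 16 nearest tested loci, 1 on either side of each member by locus number, 4 rose, 2 fell and 10 did not pass, beside 42.8% called over all tested loci, and none of the 4 beside DL and YAB4 passed. LOC_Os03g11614, the next tested locus after DL, had 290, 282 and 279 TPM in the overexpression libraries and 281, 291 and 281 TPM in the wild-type libraries. These values overlapped, with a log2 change of 0.00 ± 0.04 (SE; limma adjusted p = 0.954). RefSeq places OsMADS1 (also named Lhs1), a MADS-box gene of spikelet organs, directly after DL, but does not pair it with that identifier. On the other side, LOC_Os03g11590 had 26.8, 28.1 and 27.3 TPM with overexpression and 33.1, 14.8 and 33.4 TPM in wild type (limma adjusted p = 0.77).

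The loci whose pattern was most like that of DL were LOC_Os01g15390 and LOC_Os01g62160, out of 17989 tested loci that averaged 5 TPM or more. Their Pearson correlations with DL over the 6 libraries were 0.996 and 0.995. The 6 libraries form 2 groups, and 1289 loci reached at least 0.9, so the likeness is a description only. LOC_Os01g15390 had 19.6, 18.4 and 19.5 TPM in the overexpression libraries and 24.9, 22.8 and 21.3 TPM in the wild-type libraries. As for DL, the groups did not overlap and wild-type replicate 1 was the highest library.

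Other loci around the family were paired with genes from general knowledge, a pairing that neither the table nor RefSeq gives, and are therefore described by counts. A list of 10 loci stood for floral MADS-box genes, a meristem homeobox gene and gibberellin genes that the rice literature ties to DL or YABBY proteins. Of these 5 rose, 2 fell and 3 did not pass, beside 42.8% called over all tested loci, a share against which the lists that follow are also to be read, with log2 changes from -0.38 to 0.93 and a median of 0.12, beside 0.06 over all tested loci. The largest rise was that of LOC_Os06g49840, listed as a floral MADS-box locus, at 150.4, 141 and 144 TPM with overexpression and 72.7, 78.2 and 77.0 TPM in wild type (limma adjusted p = 1.65e-06). Of 10 loci listed for leaf polarity, 8 were tested, of which 1 rose, 1 fell and 6 did not pass, with a median log2 change of 0.07. The 2 that were not tested had at most 1.45 TPM in any library.

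Tissue was checked with lists from the same source. All 6 floral MADS-box loci, which are also among the 10 of the first list, so that their calls are counted in both, were present, summing to 607 to 621 TPM with overexpression and 534 to 547 TPM in wild type; 3 rose and 3 did not pass, and none was at 0. Most of the gap between these sums lies in LOC_Os06g49840, whose values are given above. Of 5 leaf photosynthesis loci, 4 fell and 1 rose. Their sums were 541 to 596 TPM in the overexpression libraries and 875 to 953 TPM in the wild-type libraries. Most of that gap lies in LOC_Os01g41710, with means of 425 TPM with overexpression and 737 TPM in wild type. Of 8 anther loci, 2 rose, 3 fell and 3 did not pass. Their sums were 1042 to 1094 TPM with overexpression and 2225 to 2291 TPM in wild type, and that gap rests on LOC_Os11g37280, at 263, 255 and 263 TPM with overexpression and 1470, 1524 and 1568 TPM in wild type. Of 5 meiosis loci, 2 rose and 3 did not pass, summing to 93.1 to 99.2 TPM with overexpression and 71.9 to 77.4 TPM in wild type. Here LOC_Os09g32930 holds most of the gap, with means of 59.6 TPM with overexpression and 43.9 TPM in wild type. The 3 endosperm loci summed to at most 7.95 TPM in any library, and the 1 that was tested did not pass. No listed locus was at 0 in all libraries. The part that differences in these lists have in the values of DL and the other YABBY loci was not tested.

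**Figure D4:**
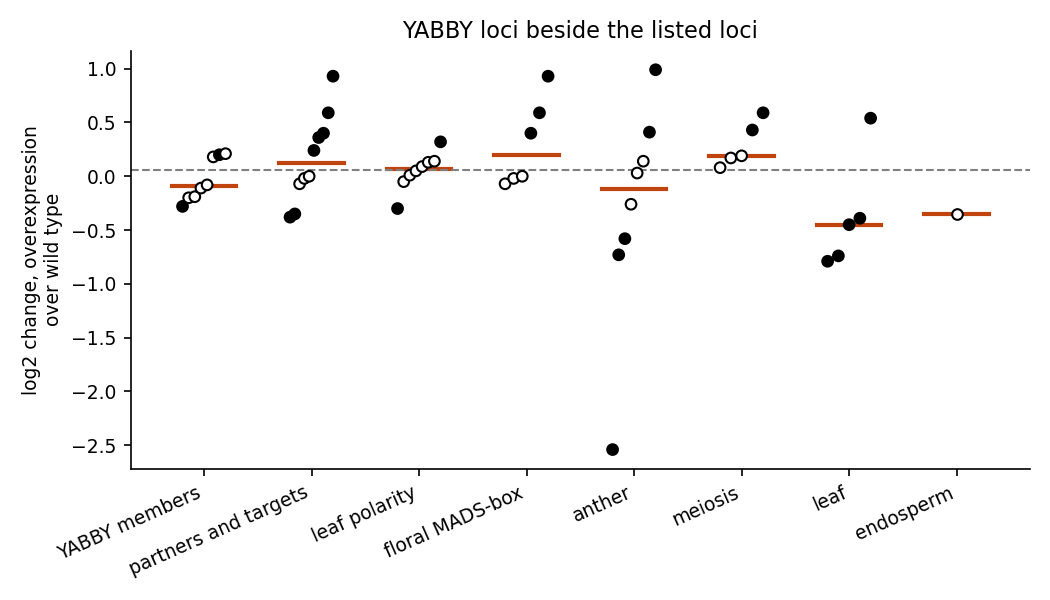
Log2 change, overexpression over wild type, of each tested locus of the YABBY family and of the 7 lists, with a line at each list's median and a dashed line at the median of all tested loci (0.06); filled points passed the adjusted threshold. The YABBY loci lie between -0.28 and 0.21, and the anther list reaches from -2.54 to 0.99.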

How the data were processed

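The deposited table gives TPM, which the authors scaled to a total of 1000000 in every library, for panicle RNA of 6 libraries. The sources used here name no aligner, quantifier or annotation. Mouse builds, GRCm38 and mm10, stand in the submitters' processing notes, although the locus identifiers are those of rice; this was not resolved, and no coordinates are given. TPM keeps no depth. Libraries were grouped by title.

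Values were analysed as log2(TPM + 1) for loci that reached 1 TPM in 3 or more libraries, with limma 3.58.1 in R 4.3.3 (two-sided, empirical Bayes with a trended variance, Benjamini-Hochberg over all tested loci). Sums, shares and ratios were compared by exact permutation over libraries. The members and lists were chosen with earlier results of these data known. All members, the locus taken for OsEXPA7, the tested loci next to DL and the 2 loci most like DL were to be named. LOC_Os01g41710, LOC_Os06g49840, LOC_Os09g32930 and LOC_Os11g37280 were named after their values were seen, as were the pairs of members whose ratios are given. The alternatives were a filter at 5 TPM or none, a pseudocount of 0.1, quantile normalization, median-of-ratios scaling, no variance trend, robust estimation, array weights, a replicate block, and leaving out each library.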

Additional observations from a re-analysis of the deposited data

How the results depend on the processing

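Of 15 alternatives, DL kept its direction in all and passed in 14, with log2 changes from -0.38 to -0.23 and limma adjusted p from 0.00293 to 0.0558. YAB4 kept its direction in all and passed in 8 (limma adjusted p from 0.00754 to 0.231). The number of YABBY loci called, 2 as reported, was 1 without the filter, 4 with array weights, and 1 to 3 when 1 library was left out. YAB2 passed in 3 alternatives, YAB3 in 1 and YAB6 in 4. The log2 change of YAB1 turned to 0.08 with array weights and ran from -0.55 to 0.30 when 1 library was left out, positive without wild-type replicate 3; that of YAB7 ran from -0.30 to 0.03, positive without wild-type replicate 2; the cause was not tested. The summed TPM without YAB1, overexpression minus wild type, was -17.6 after quantile normalization and -10.7 with median-of-ratios scaling, in place of -1.46. All loci called numbered 7587 to 12434, against 10002, and higher calls were 45.7% of them after quantile normalization, 50.7% with median-of-ratios scaling and 59.1% with the deposited scaling. The listed loci called numbered 20 to 25. Alternatives for the list counts, the OsEXPA7 locus, the pair ratios and the sum without YAB1 were chosen after seeing the data. Same-numbered libraries deviated together at 0.097, -0.0988 and -0.0685, so the numbers were not taken as pairs; the replicate block called 1 YABBY locus, DL, and 9264 loci in all, with YAB4 at a log2 change of 0.20 (limma adjusted p = 0.0601). YAB7 could not be tested at the 5 TPM filter. Depth is unknown, which limits what can be said of YAB7.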
